A study of Mus musculus with 6 samples.

Results

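The genes described here encode integrins, laminins, type IV collagen chains and the basement membrane proteins that join them. They were taken by symbol: the integrin alpha and beta subunits, the laminin alpha, beta and gamma chains, the collagen IV chains, and Sparc, Nid1, Nid2, Hspg2 and Dag1. Each gene was read from the probe set with the highest mean over the 6 arrays among those with a single symbol, which gave 45 genes with 98 probe sets, out of 18194 genes and 45101 probe sets in all. For Itga11 and Itgad no single-symbol probe set was found, and these genes were not analysed here. The cells were E14Tg2a, a mouse embryonic stem cell line, and RNA was measured 96 h into treatment on Affymetrix arrays. The control group received an siRNA against firefly luciferase, a gene that mouse cells lack. The other groups received Ncl siRNA #1 or Ncl siRNA #2, each directed at Ncl, which encodes the nucleolar protein nucleolin. Each group held 2 arrays, all groups share the line and the time, and nothing in the labels says whether replicates were separate cultures. P-values therefore measure only the spread between these arrays, which may be technical.

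Integrins are receptors made of an alpha and a beta subunit, and the pair decides which matrix protein is bound. Laminins are trimers of an alpha, a beta and a gamma chain that assemble into the sheet of a basement membrane next to the cell. Collagen IV forms a second network, nidogens and perlecan connect the networks, and SPARC is a secreted collagen-binding protein. Mouse embryonic stem cells attach to laminin through integrins that contain the beta 1 subunit, and the first basement membranes of the mouse embryo contain laminin and collagen IV.

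Readings are log2 values as deposited, and a change is a difference of group means on that scale, so 1 is a 2-fold change. A change was called where limma's adjusted p, over all 18194 genes, was under 0.05. Levels of different genes were not compared, since probe sets differ in how brightly they bind. Ncl itself read 14.21 on both control arrays and 13.72 to 13.77 on the 4 Ncl siRNA arrays, and fell by 0.46 (SE 0.03, adjusted p = 3.39e-10). Both control arrays also carried lung and heart transcripts, which their label as embryonic stem cells does not account for. Scgb1a1, which encodes the club cell secretory protein of the airway, read 12.96 on both control arrays and 3.29 to 4.01 on the Ncl siRNA arrays, and 11 of 12 lung epithelium markers were lower. The summed level of a list is the log2 of the sum of its genes' linear values, so the brightest probe sets weigh most. That of the lung epithelium list was 13.56 to 13.63 in control, 9.48 to 9.49 with siRNA #1 and 9.36 to 9.40 with siRNA #2. Of its markers 3 were low, meaning below the lower quartile of the array, on all 4 Ncl siRNA arrays. All 8 heart muscle markers were lower too, from 9.43 to 9.73 in control arrays to 8.26 to 8.44 in the others, and of 10 fibroblast and lung mesenchyme markers 6 were lower and 1, Eln, was higher (summed level 9.54 to 9.88 in control against 8.32 to 8.63). Of 12 endothelial markers 7 were lower, while Tek rose by 1.03 (SE 0.12) and Pecam1 rose from 6.40 and 6.07 in control to 7.43 to 8.20. The summed level of the 12 was 10.30 to 10.39 in control. With siRNA #1 it was 10.09 to 10.32, which overlapped control, and with siRNA #2 10.06 to 10.09, which lay below control. Embryonic stem cell markers fell in 8 of 11 cases and rose in 1, with a median of -0.46 and a summed level of 16.45 to 16.46 in control, 16.22 to 16.24 with siRNA #1 and 16.04 with siRNA #2. Markers of trophectoderm and simple epithelium rose in 8 of 9 cases, from a summed level of 10.61 to 10.71 in control arrays to 13.24 to 13.30 with siRNA #1 and 14.00 to 14.01 with siRNA #2. Both control arrays carried the lung and heart markers, so no comparison with control can be given without them, and the part of these markers in the results below was not tested. Marker counts here are for the mean of both Ncl siRNAs against control, where 20.3% of all genes rose and 21.7% fell. In bulk RNA, fewer cells of a type and less RNA per cell cannot be told apart.

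Integrin and basement membrane genes moved upward more often than downward when Ncl was targeted. Against control, taking the mean of both Ncl siRNAs, 26 of the 45 genes were called, against 42% of all genes. Of these 19 rose and 7 fell, while over all genes 20.3% rose and 21.7% fell. The median change of the 45 was 0.17, against -0.05 for all genes, and the range ran from -0.96 for Itgal to 2.80 for Itga8. Of the 45, 9 rose by at least 1 and 0 fell by that much, where 4.64% and 1.6% of all genes did. With siRNA #1 alone, 23 were called (37.4% of all genes), and 17 rose and 6 fell, where the shares over all genes were 20.2% and 17.3%. With siRNA #2 alone, 26 were called (39.5% of all genes), and 20 rose and 6 fell, where the shares were 17.7% and 21.7%. These comparisons share the control arrays. In 22 of the 45 genes all 4 Ncl siRNA arrays read above both control arrays, a pattern held by 23.4% of all genes, and in 7 all 4 read below, a pattern held by 26.7% of all genes. The remaining 16 overlapped.

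**Figure D1:**
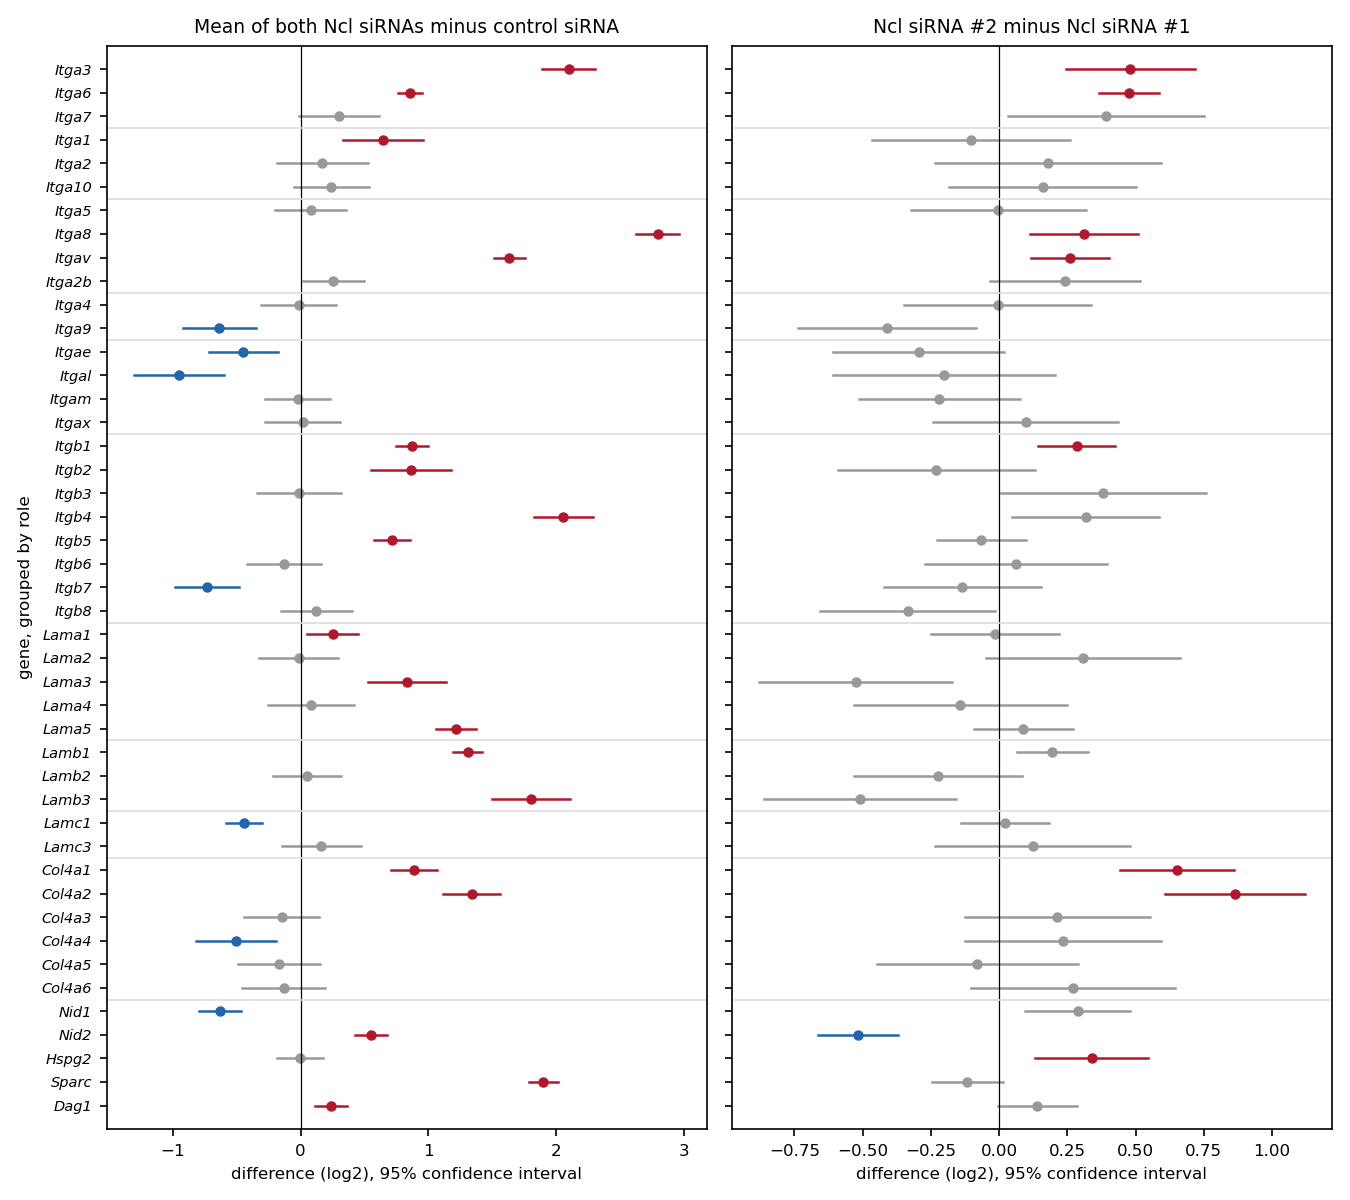
Difference in log2 level of each of the 45 genes, ordered by role, with 95% confidence intervals from limma, for the mean of both Ncl siRNAs minus control (left) and siRNA #2 minus siRNA #1 (right, on its own scale); red marks genes called higher, blue genes called lower and grey genes not called. On the left the values run from -0.96 (Itgal) to 2.80 (Itga8), and on the right from -0.53 (Lama3, not called) to 0.86 (Col4a2).

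Of the laminin-binding alpha subunits, Itga3 and Itga6 rose and Itga7 did not pass the test. Itga3, the alpha subunit of an epithelial laminin receptor, read 7.71 and 7.30 in control, 9.43 and 9.30 with siRNA #1, and 9.75 and 9.94 with siRNA #2. Its change was 2.10 (SE 0.10, adjusted p = 1.31e-13), or 4.28-fold. Every Ncl siRNA array lay well above both control arrays, and the siRNA #2 arrays lay above the siRNA #1 arrays. Itga6, which pairs with beta 1 or beta 4, read 11.15 and 11.12 in control, 11.76 and 11.75 with siRNA #1, and 12.21 and 12.25 with siRNA #2. It rose by 0.86 (SE 0.05, adjusted p = 9.69e-13), in 3 steps without overlap. Itga7, best known from muscle, changed by 0.30 (adjusted p = 0.118), and rose with siRNA #2 alone by 0.50 (adjusted p = 0.0256).

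Itgb4, whose product pairs with that of Itga6 in the hemidesmosomes that fasten epithelia to their basement membrane, rose as well. Its readings were 6.09 and 6.36 in control, 8.23 and 8.03 with siRNA #1, and 8.42 and 8.47 with siRNA #2. The change of 2.06 (SE 0.11, adjusted p = 1.52e-12) was 4.16-fold, and the groups given Ncl siRNA lay above both control arrays. The keratin genes Krt8, Krt18 and Krt19, which build the filaments of simple epithelia, rose on the same arrays by 3.53 (SE 0.05), 3.71 (SE 0.06) and 3.83 (SE 0.09). Their part in these changes was not tested.

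Among the alpha subunits that recognise the RGD peptide of matrix proteins, Itga8 and Itgav rose, while Itga5 and Itga2b did not pass the test. Itga8, the receptor subunit for nephronectin known from the developing kidney, showed the highest change of the 45. It read 7.01 and 7.27 in control, 9.81 and 9.75 with siRNA #1, and 10.12 and 10.06 with siRNA #2. The change was 2.80 (SE 0.08, adjusted p = 4.06e-17), or 6.95-fold, and a second probe set of the gene gave 2.61. Itgav, the alpha V subunit of vitronectin receptors, read 9.31 and 9.28 in control, 10.73 and 10.87 with siRNA #1, and 11.10 and 11.03 with siRNA #2. It rose by 1.64 (SE 0.06, adjusted p = 1.7e-15), or 3.11-fold, with no overlap between the 3 groups. Itga5, the fibronectin receptor subunit, changed by 0.08 (adjusted p = 0.690). Itga2b, the platelet fibrinogen receptor subunit, changed by 0.26 (adjusted p = 0.0806), with 0.38 (adjusted p = 0.0270) for siRNA #2 alone.

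The promoter of Itga8 is printed because this gene had the highest change, with those of Lamb1, Col4a1 and Col4a2, which are described with the matrix genes. RefSeq windows of 300 bases, from 250 before to 50 after the annotated start on GRCm38.p6, were found for 31 of the 45 genes (35 windows). Each is printed 5′ to 3′ on the gene's strand, and capitals mark matches to the motifs searched.
Itga8 (chr2:12301895-12302194, minus strand): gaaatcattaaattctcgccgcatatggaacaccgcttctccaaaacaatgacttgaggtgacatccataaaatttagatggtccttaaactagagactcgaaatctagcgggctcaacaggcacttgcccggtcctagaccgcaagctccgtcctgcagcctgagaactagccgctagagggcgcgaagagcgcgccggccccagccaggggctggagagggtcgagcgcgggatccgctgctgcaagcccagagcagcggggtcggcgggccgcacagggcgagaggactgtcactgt
Lamb1 (chr12:31265043-31265342, plus strand): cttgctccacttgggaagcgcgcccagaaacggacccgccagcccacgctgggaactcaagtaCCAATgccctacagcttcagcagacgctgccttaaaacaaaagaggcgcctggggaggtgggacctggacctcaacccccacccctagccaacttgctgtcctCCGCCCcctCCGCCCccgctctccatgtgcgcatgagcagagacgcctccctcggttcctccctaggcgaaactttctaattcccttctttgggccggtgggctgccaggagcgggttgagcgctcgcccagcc
Col4a1 (chr8:11312777-11313076, minus strand): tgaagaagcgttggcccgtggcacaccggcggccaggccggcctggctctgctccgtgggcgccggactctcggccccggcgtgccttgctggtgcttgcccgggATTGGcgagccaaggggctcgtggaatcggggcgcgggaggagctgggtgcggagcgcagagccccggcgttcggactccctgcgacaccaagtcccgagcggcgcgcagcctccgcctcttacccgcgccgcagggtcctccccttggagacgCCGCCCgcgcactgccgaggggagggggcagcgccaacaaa
Col4a2 (chr8:11312555-11312854, plus strand): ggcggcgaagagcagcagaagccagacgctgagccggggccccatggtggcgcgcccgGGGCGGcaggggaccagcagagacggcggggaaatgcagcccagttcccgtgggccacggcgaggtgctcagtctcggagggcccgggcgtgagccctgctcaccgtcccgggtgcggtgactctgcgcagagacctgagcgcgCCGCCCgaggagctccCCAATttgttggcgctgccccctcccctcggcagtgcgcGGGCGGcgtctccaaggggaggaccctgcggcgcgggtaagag
The motifs were CCAAT, the CCAAT box; GGGCGG, the GC box; TATAAA, the TATA box; TGANTCA, the AP-1 site; and GGAATG, a TEAD site, each on both strands, and no match was dropped for overlap with another motif. CCAAT was in 10 of the 35 windows and in 37.4% of all 32851 windows. GGGCGG was in 20 of 35 and 35.7% of all, TATAAA in 0 and 13.6%, TGANTCA in 3 and 7.81%, and GGAATG in 5 and 14.7%. The Itga8 window held no match to any of the 5. The Lamb1 window held 1 CCAAT and 2 GGGCGG. Such matches describe letters in these windows and are not binding sites shown by these data.

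Of the 8 beta subunits 4 rose, 1 fell and the other 3 were not called, where 20.3% of all genes rose and 21.7% fell. Itgb1, the partner of most alpha subunits above, read 9.97 and 9.85 in control, 10.62 and 10.67 with siRNA #1, and 10.88 and 10.98 with siRNA #2, and rose by 0.87 (SE 0.06, adjusted p = 5.62e-11). The 3 groups did not overlap. Itgb5, a partner of alpha V, rose by 0.71 (SE 0.07, adjusted p = 1.46e-08), from 9.18 and 9.26 in control to 9.83 to 10.02 on the Ncl siRNA arrays. Itgb3, another partner of alpha V, changed by -0.01 (adjusted p = 0.959), and Itgb6 by -0.13 (adjusted p = 0.494). Itgb8 was low on all 6 arrays and Itgb6 on 5 of 6, so their changes say little about either gene.

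**Figure D2:**
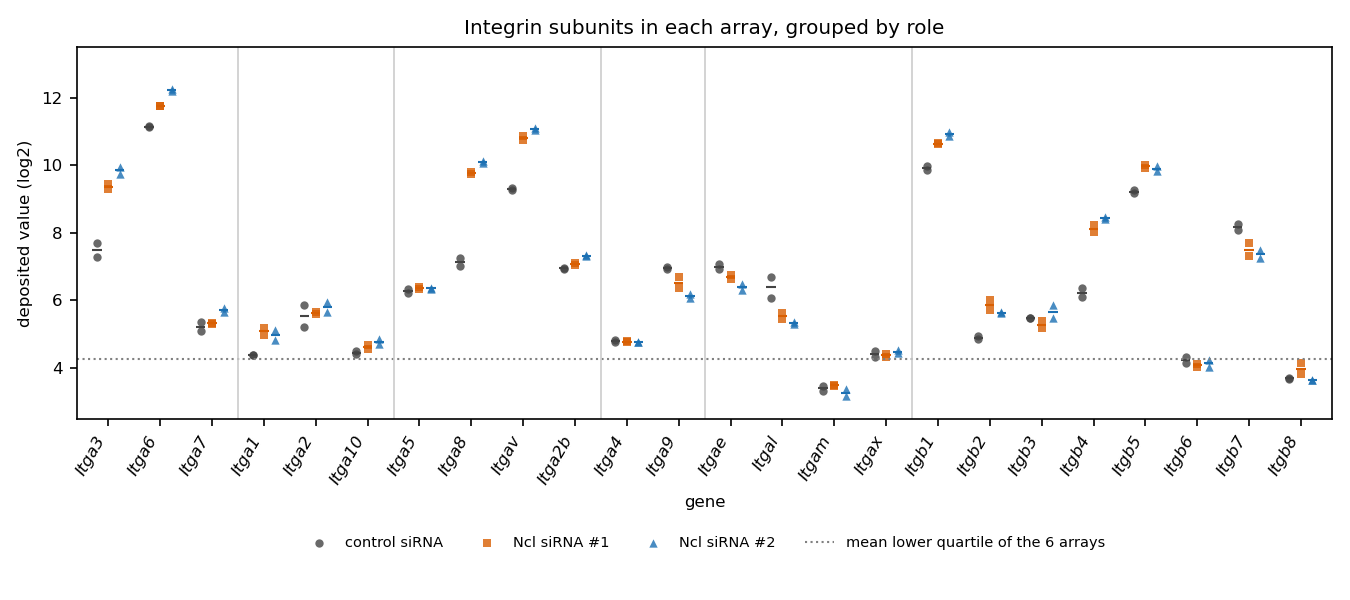
Log2 level of integrin genes on each of the 6 arrays (points) with the group means (short lines), for control siRNA, Ncl siRNA #1 and Ncl siRNA #2; the dotted line is the mean lower quartile of the arrays. Itga8 moves from 7.01 and 7.27 in control to 10.12 and 10.06 with siRNA #2, and Itgal goes the other way, from 6.06 and 6.71 to 5.30 and 5.35.

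Integrins of the leukocyte class mostly fell or did not pass the test. Itgal, the alpha subunit of the lymphocyte receptor for ICAM proteins, read 6.06 and 6.71 in control, 5.61 and 5.44 with siRNA #1, and 5.30 and 5.35 with siRNA #2. It fell by 0.96 (SE 0.17, adjusted p = 7.00e-05), to 51.6% of control. Its control arrays lay far apart, and without control replicate 2 the change was -0.63. The other probe set of Itgal gave -0.17. Itgb7, the partner of Itgae and Itga4 in lymphocyte homing receptors, fell by 0.73 (SE 0.12, adjusted p = 2.75e-05). Itgae fell by 0.45 (SE 0.13, adjusted p = 0.00746), a call lost without control replicate 2 (-0.38, adjusted p = 0.103) or siRNA #2 replicate 2 (-0.40, adjusted p = 0.0524). Itga9, a subunit with a wider tissue range, fell by 0.64 (SE 0.14, adjusted p = 5.43e-04). Its other probe sets gave -1.18 and -0.03. Itgb2, the common beta subunit of leukocytes, went the other way and rose by 0.86 (SE 0.15, adjusted p = 6.08e-05), from 4.94 and 4.85 in control to 5.63 to 6.02. Itga4 changed by -0.02, Itgax by 0.02 and Itgam by -0.02, with adjusted p of 0.945, 0.945 and 0.905, and Itgam was low on all 6 arrays.

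Of 12 leukocyte markers, 2 rose, 4 fell and 6 did not pass the test, where 20.3% of all genes rose and 21.7% fell. Their summed level was 11.50 to 11.60 in control, 11.54 to 11.55 with siRNA #1 and 11.45 to 11.52 with siRNA #2. Laptm5 weighed most in this level. Its group means were 10.76 in control, 11.02 with siRNA #1 and 11.01 with siRNA #2. Ptprc, the pan-leukocyte surface phosphatase, read 4.37 and 3.78 in control and 3.50 to 4.01 elsewhere, and was low on 5 of 6 arrays. Lyz2, the lysozyme of macrophages and alveolar cells, fell by 3.52 (SE 0.13) and Cd74, the invariant chain of antigen presentation, by 0.83 (SE 0.13). Chil3 fell by 0.72 (SE 0.14) but was low on all 6 arrays, and Tyrobp fell by 0.56 (SE 0.18). The markers that rose were Cd68, by 0.36 (SE 0.08), and Laptm5, by 0.26 (SE 0.05). The part of these cells in the fall of Itgal, Itgae and Itgb7 was not tested.

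Collagen-binding alpha subunits gave little. Itga1 read 4.39 and 4.39 in control and 4.84 to 5.19 on the Ncl siRNA arrays and rose by 0.65 (SE 0.15, adjusted p = 0.00124). Its other probe set gave -0.29, and the mean of both gave 0.18 (adjusted p = 0.250), so the call rests on the choice of probe set. Itga2 changed by 0.17 (adjusted p = 0.470) and Itga10 by 0.24 (adjusted p = 0.194).

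Of the 10 laminin chains measured, 3 alpha and 2 beta chains rose and 1 gamma chain fell. Over all genes 20.3% rose and 21.7% fell. The alpha chain of adult and epithelial basement membranes, Lama5, read 8.17 and 8.10 in control, 9.35 and 9.27 with siRNA #1, and 9.41 and 9.38 with siRNA #2. It rose by 1.21 (SE 0.08, adjusted p = 1.37e-11), or 2.32-fold, and the Ncl siRNA groups lay close together. Lamb1, the beta chain of embryonic laminin, read 10.41 and 10.26 in control, 11.59 and 11.50 with siRNA #1, and 11.75 and 11.73 with siRNA #2, a rise of 1.31 (SE 0.05, adjusted p = 1.46e-14) or 2.47-fold. Lamb3, a beta chain restricted to the laminin of stratified epithelia and hemidesmosomes, read 5.84 and 5.28 in control, 7.70 and 7.54 with siRNA #1, and 7.16 and 7.06 with siRNA #2. It rose by 1.81 (SE 0.15, adjusted p = 1.11e-09), or 3.50-fold, and here the siRNA #1 arrays were the higher ones. Lama3, the alpha chain that assembles with Lamb3, rose by 0.83 (SE 0.15, adjusted p = 6.88e-05), but its other probe set gave -0.30 and the mean of both gave 0.27 (adjusted p = 0.0763). Lama1, the alpha chain of the first embryonic laminins, rose by 0.25 (SE 0.10, adjusted p = 0.0437), a call that was lost with quantile normalization (0.20, adjusted p = 0.0596), with centred arrays (0.22, adjusted p = 0.0928) and without either control array (0.32, adjusted p = 0.0532, without replicate 1, and 0.18, adjusted p = 0.303, without replicate 2). It was also lost without siRNA #1 replicate 1 (0.17), siRNA #2 replicate 1 (0.27) or siRNA #2 replicate 2 (0.23).

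Lamc1, the gamma chain shared by most laminins, fell. It read 10.11 and 10.00 in control, 9.64 and 9.57 with siRNA #1, and 9.56 and 9.69 with siRNA #2. The fall was 0.44 (SE 0.07, adjusted p = 1.02e-05), to 73.6% of control, and the second probe set gave -1.48, so that the mean of both was -0.96. Both probe sets put every Ncl siRNA array below both control arrays. Lama2 of muscle changed by -0.02, Lama4 of vessels by 0.08, Lamb2 by 0.05 and Lamc3 by 0.16, and none of the 4 passed the test.

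**Figure D3:**
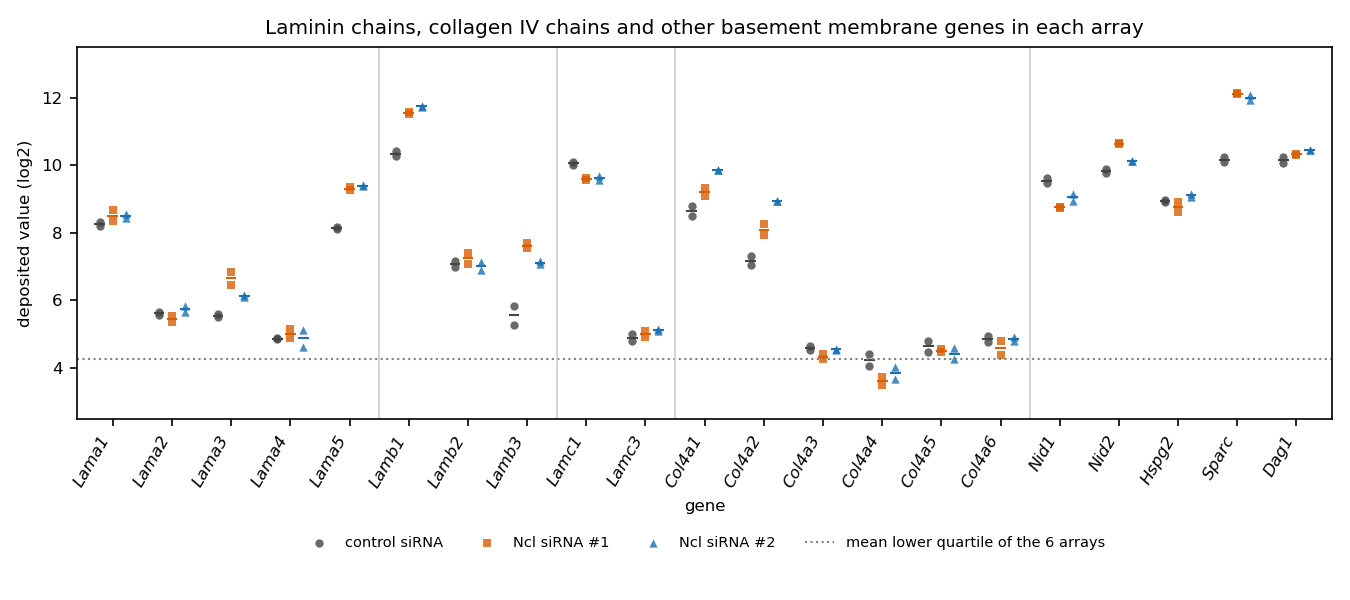
Log2 level of laminin, collagen IV and linker genes on each of the 6 arrays (points) with the group means (short lines), for control siRNA, Ncl siRNA #1 and Ncl siRNA #2; the dotted line is the mean lower quartile of the arrays. Lamb1 and Sparc rise in both Ncl siRNA groups, Lamc1 and Nid1 fall, and Col4a1 and Col4a2 sit higher with siRNA #2 than with siRNA #1.

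Collagen IV rose for one pair of chains. Col4a1 and Col4a2 encode the chains of the trimer found in nearly all basement membranes. Col4a1 read 8.50 and 8.79 in control, 9.33 and 9.08 with siRNA #1, and 9.85 and 9.87 with siRNA #2, a rise of 0.88 (SE 0.09, adjusted p = 2.07e-08). Col4a2 read 7.06 and 7.30 in control, 8.26 and 7.92 with siRNA #1, and 8.95 and 8.96 with siRNA #2, a rise of 1.34 (SE 0.11, adjusted p = 8.14e-10) or 2.53-fold. In both genes the 3 groups stood apart in the same order. The other 4 chains belong to the networks of kidney and a few other tissues. Col4a3 changed by -0.15, Col4a5 by -0.17 and Col4a6 by -0.13, with no call. Col4a4 fell by 0.51 (SE 0.15, adjusted p = 0.00847), but 5 of its 6 readings were low, and the call was lost without control replicate 1 (-0.32, adjusted p = 0.176) or siRNA #2 replicate 1 (-0.42, adjusted p = 0.0526).

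Col4a1 and Col4a2 lie head to head on chromosome 8 and are read from a shared promoter. The windows printed above overlap by 78 bases (chr8:11312777-11312854), where both hold the same stretch of the genome, read from opposite strands. The Col4a1 window held 1 CCAAT and 1 GGGCGG, and the Col4a2 window 1 CCAAT and 3 GGGCGG. The GGGCGG of the Col4a1 window lies in the overlap and is also among the 3 of the Col4a2 window. The GC contents of the Col4a1 and Col4a2 windows were 74.0% and 73.7%, those of Itga8 and Lamb1 59.0% and 63.7%.

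Of the linking and collagen-binding proteins, Sparc, Nid2 and Dag1 rose and Nid1 fell. Sparc, a secreted protein that binds collagen IV and is made in quantity by parietal endoderm, read 10.09 and 10.23 in control, 12.14 and 12.10 with siRNA #1, and 11.93 and 12.08 with siRNA #2. It rose by 1.90 (SE 0.05, adjusted p = 2.77e-17), or 3.73-fold, and siRNA #2 minus siRNA #1 was -0.12 (adjusted p = 0.268). Nid1, the main nidogen that ties laminin to collagen IV, read 9.61 and 9.46 in control, 8.77 and 8.75 with siRNA #1, and 9.16 and 8.93 with siRNA #2, a fall of 0.63 (SE 0.08, adjusted p = 1.01e-06). Nid2, its paralog, moved in the opposite direction. It read 9.90 and 9.76 in control, 10.63 and 10.65 with siRNA #1, and 10.12 and 10.13 with siRNA #2, a rise of 0.55 (SE 0.06, adjusted p = 1.22e-07). Hspg2, which encodes perlecan, changed by -0.01 (adjusted p = 0.965). Dag1, the dystroglycan precursor and a laminin receptor outside the integrin family, rose by 0.24 (SE 0.06, adjusted p = 0.00285), a call lost without control replicate 2 (0.16, adjusted p = 0.144).

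Primitive and parietal endoderm, the embryonic layers that secrete much basement membrane, were checked with 12 markers. Of these 2 rose, 4 fell and 6 did not pass the test, where 20.3% of all genes rose and 21.7% fell. The summed level was 9.88 to 9.97 in control, 9.56 to 9.75 with siRNA #1 and 9.63 to 9.70 with siRNA #2. Gata4 and Gata6, transcription factors of the lineage, changed by -0.32 (adjusted p = 0.102) and -0.17 (adjusted p = 0.400). Plat rose by 1.31 (SE 0.14) and Sox17 by 0.62 (SE 0.14). The markers that fell were Thbd (-1.22), Cubn (-1.2), Pdgfra (-1.12) and Dab2 (-0.96). No marker list of this kind was tested as a source of Sparc, Lamb1, Col4a1 or Col4a2 transcripts.

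Among the 45 genes, the largest differences between the siRNAs that passed the test were those of Col4a2, Col4a1 and Nid2. Between siRNA #2 and siRNA #1, 9 of the 45 genes were called, against 8.48% of all genes. Of these 8 were higher with siRNA #2 and 1 was lower, where 2.3% of all genes were called higher and 6.18% lower. With arrays centred on their median the split was 5 higher and 3 lower, and with quantile normalization 11 higher and 1 lower. Col4a2 was higher with siRNA #2 by 0.86 (SE 0.12, 95% interval 0.61 to 1.12, adjusted p = 1.05e-04), and Col4a1 by 0.65 (SE 0.10, interval 0.44 to 0.86, adjusted p = 2.27e-04). The second probe set of Col4a1 gave the same difference, 0.65. Nid2 was lower by 0.52 (SE 0.07, interval -0.66 to -0.37, adjusted p = 5.66e-05). Itga3 and Itga6 were higher by 0.48 (SE 0.11) and 0.47 (SE 0.05), with adjusted p of 0.0107 and 4.56e-06.

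All 9 calls between the siRNAs were lost when variances were estimated without a trend, with adjusted p of 0.0585 for Col4a2, 0.0930 for Col4a1, 0.0616 for Nid2, 0.0600 for Itga6 and 0.190 for Itga3. Hspg2 was higher with siRNA #2 by 0.34 (SE 0.10, adjusted p = 0.0386), but its second probe set gave -0.05. Itga8 was higher by 0.31 (adjusted p = 0.0446), Itgb1 by 0.28 (adjusted p = 0.0115) and Itgav by 0.26 (adjusted p = 0.0208). The Itga8 call was lost without any 1 of the 4 Ncl siRNA arrays (adjusted p of 0.103 and 0.0703 without siRNA #1 replicates 1 and 2, and 0.362 and 0.231 without siRNA #2 replicates 1 and 2). The calls of Hspg2, Itgb1 and Itgav were lost without siRNA #1 replicate 1 (adjusted p of 0.341, 0.0644 and 0.141), siRNA #2 replicate 1 (0.341, 0.0556 and 0.286) or siRNA #2 replicate 2 (0.142, 0.235 and 0.117). That of Itga3 was lost without siRNA #2 replicate 2 (0.38, adjusted p = 0.203). Lama3 and Lamb3 read lower with siRNA #2 by 0.53 and 0.51, and neither passed the test (adjusted p = 0.0588 and 0.0654). For Lama5 the difference was 0.09, with an interval from -0.09 to 0.27.

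Several genes could be read from more than 1 probe set, and these did not always move together. Of the 29 genes with several, 17 had all probe sets moving in 1 direction. The 3 probe sets of Itga3 gave 2.10, 0.72 and 0.70, the second of Itga6 gave 0.57, and those of Lamb1 ranged from 0.30 to 1.60. Itgav had 2 probe sets at 1.64 and others at 0.26, -0.09 and 0.05, the last 2 of which were low on all arrays. Itgb1 had 1.09, 0.44, 0.29, 0.01 and -0.22 beside the 0.87 of the brightest, and its 2 lowest values came from probe sets that were low on all 6 arrays. Sparc had 2.15 and -0.19 beside 1.90, and Lama5 0.87 and -0.25 beside 1.21. Averaging all probe sets moved changes either way. It gave larger ones for Lamc1 (-0.96) and Col4a1 (0.98), and smaller ones for others, among them 1.17 for Itga3, 0.70 for Itgav, 0.41 for Itgb1, 0.61 for Lama5, -0.32 for Nid1 and -0.57 for Itgal, all still called.

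**Figure D4:**
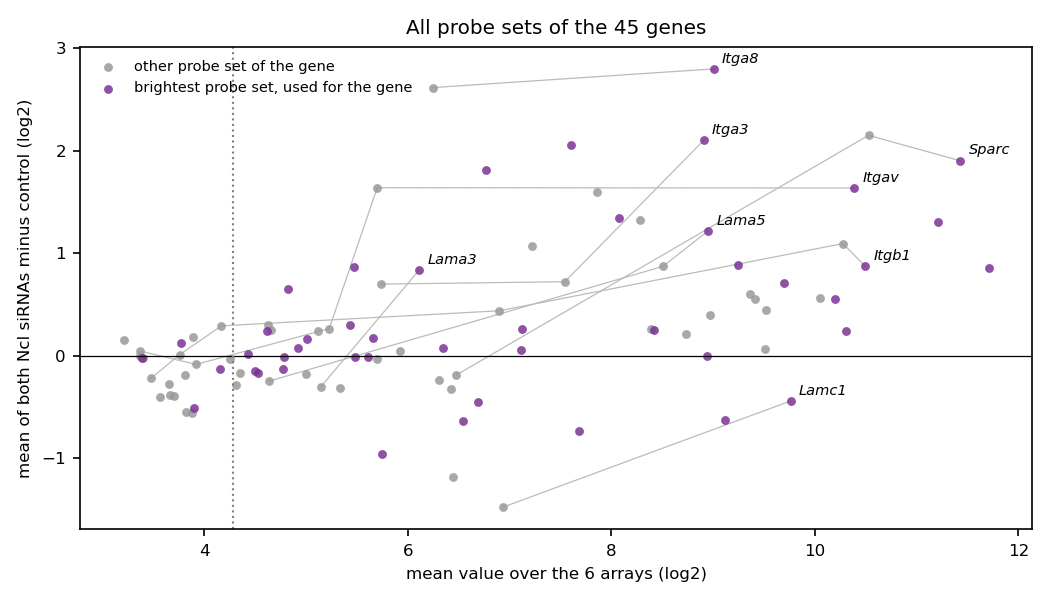
Change in log2 level (mean of both Ncl siRNAs minus control) of each of the 98 probe sets of the 45 genes against its mean level over the 6 arrays; lines join the probe sets of 8 named genes, purple marks the brightest one, grey the others, and the dotted line is the mean lower quartile of the arrays. The probe sets of Itgav left of the dotted line read -0.09 and 0.05 and a brighter one 0.26, while another probe set and the brightest both read 1.64.

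Genes that work with these receptors and ligands were taken from lists written from general knowledge. Counts in all of these lists are for the mean of both Ncl siRNAs against control, where 20.3% of all genes rose and 21.7% fell. Of 28 cytoplasmic adhesion genes, which link integrins to actin, 16 rose, 7 fell and 5 did not pass the test, with a median of 0.51 beside -0.05 for all genes. Lpp rose by 2.19 (SE 0.08), the alpha-parvin gene Parva by 1.88 (SE 0.20) and zyxin, Zyx, by 1.75 (SE 0.11). Kank2 fell by 1.04 (SE 0.07), Tns2 by 0.79 (SE 0.13) and the talin gene Tln2 by 0.77 (SE 0.10). Of 18 other matrix receptors, 11 rose, 0 fell and 7 did not pass the test, with a median of 0.44. The syndecan gene Sdc4 rose by 2.71 (SE 0.05), the glypican gene Gpc4 by 2.14 (SE 0.06) and the collagen receptor kinase Ddr1 by 1.72 (SE 0.05).

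The matrix lists were more mixed. Of 21 interstitial matrix ligands, 8 rose, 4 fell and 9 did not pass the test, with a median of 0.02. Thbs1, thrombospondin, rose by 4.31 (SE 0.09), and the matricellular genes Ccn1 and Ccn2 by 4.20 (SE 0.06) and 2.48 (SE 0.04). The fibrillar collagen genes Col3a1 and Col1a2 fell by 2.54 (SE 0.18) and 0.88 (SE 0.16), and the fibrillin gene Fbn2 by 0.51 (SE 0.17). The nephronectin gene Npnt, chosen after its value was seen because its product binds the Itga8 receptor, rose by 2.13 (SE 0.12), from 6.13 and 5.92 in control to 8.03 to 8.32. Among 22 further basement membrane genes 9 rose, 3 fell and 10 did not pass the test, with a median of 0.11. Efemp1 rose by 2.42 (SE 0.14), the anchoring fibril collagen Col7a1 by 2.32 (SE 0.08) and Fbln1 by 1.17 (SE 0.10). Netrin, Ntn1, fell by 1.40 (SE 0.08), Bgn by 0.69 (SE 0.14) and Papln by 0.56 (SE 0.16).

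Of 23 genes that process matrix proteins 10 rose, 2 fell and the other 11 were not called, with a median of 0.13. The collagen chaperone Serpinh1 rose by 1.97 (SE 0.09), the crosslinking enzyme gene Loxl4 by 1.59 (SE 0.13) and the prolyl hydroxylase subunit P4ha2 by 1.10 (SE 0.11). Tgm2, a transglutaminase, fell by 0.92 (SE 0.15) and Ppib, a prolyl isomerase, by 0.14 (SE 0.05). Of 17 dystroglycan partners 3 rose, 4 fell and 10 did not pass the test, with a median of -0.06. These counts were near the shares over all genes. The sarcoglycans Sgce and Sgcb rose by 2.69 (SE 0.09) and 1.40 (SE 0.11) and the glycosyltransferase Pomt2 by 0.81 (SE 0.11), whereas Pomt1 fell by 0.42 (SE 0.12), Pomk by 0.41 (SE 0.10) and the syntrophin gene Sntb2 by 0.37 (SE 0.07).

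**Figure D5:**
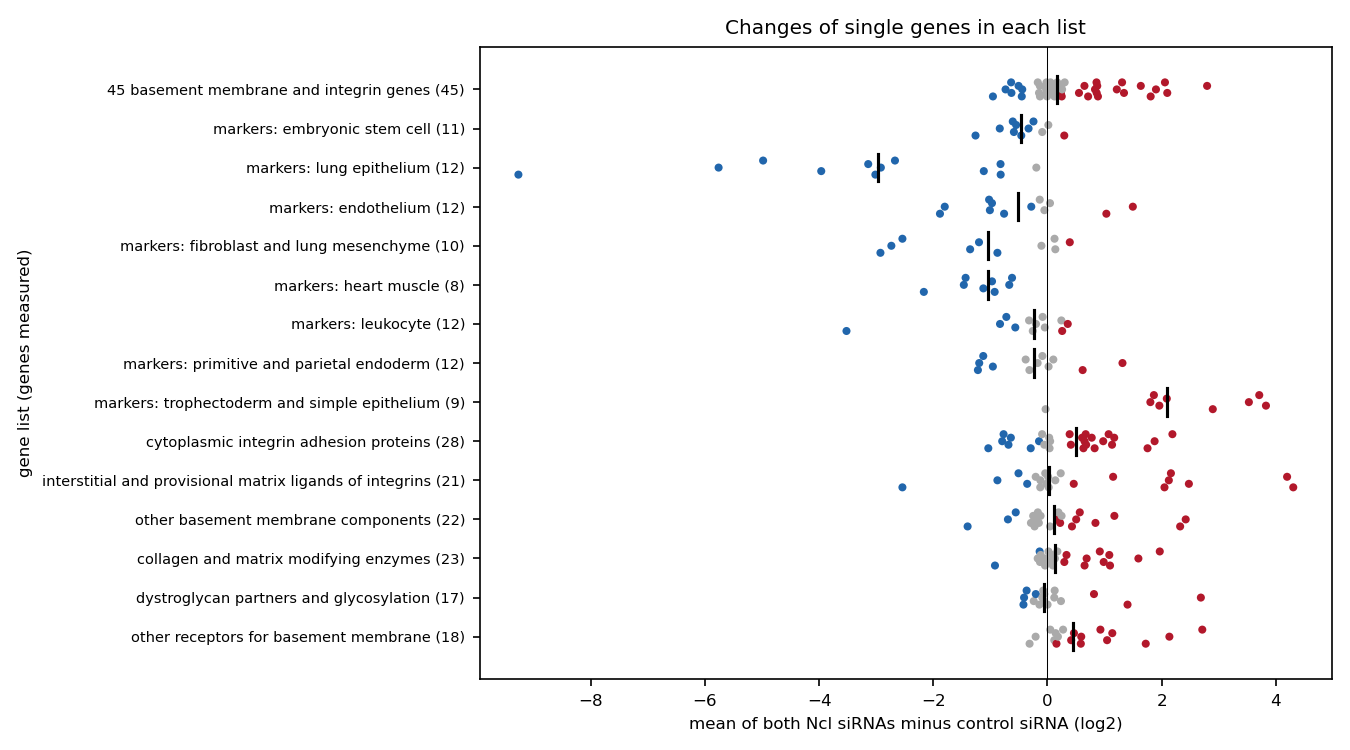
Change in log2 level (mean of both Ncl siRNAs minus control) of each gene of the 45, of 8 lists of cell type markers and of 6 lists of partner genes; points are genes, red where called higher, blue where called lower and grey where not called, and black bars are medians. Medians of the partner lists run from -0.06 for dystroglycan partners to 0.51 for cytoplasmic adhesion genes, and the marker lists reach from -2.97 for lung epithelium to 2.09 for trophectoderm and simple epithelium.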

How the data were processed

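The deposited values are log2 probe set levels that the authors had already normalized between arrays; the summarisation and normalization method is not given in the sources used here. RNA was extracted with a Qiagen kit and labelled with biotin by an Affymetrix IVT kit, per the labels' protocols. No scaling or filter was added for the main results. A probe set was named through GEO's platform table where it had 1 symbol (34958 probe sets, against 932 with several and 9211 with none), and the one with the highest mean over the 6 arrays stood for its gene. Array medians ran from 5.73 to 5.79, and the number of arrays limits the precision.

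For the tests, limma 3.58.1 (R 4.3.3) estimated a mean for each siRNA group from all 6 arrays over 18194 genes (lmFit, then eBayes with a trend; residual df 3, prior df 17.5), with Benjamini-Hochberg adjustment over all genes and a threshold of 0.05. Tested on simulated data for the mean of both Ncl siRNAs minus control over 18194 genes, it recovered 46 of 67 genes with a true change of 0.5 (log2), 67 of 67 with 1 and 66 of 66 with 2, and made 9 false calls. The simulation changed only these genes and drew normal noise from limma's own variance estimates. In the real data 42% of all genes were called, so these rates need not hold there. Every member is accounted for. Values on all arrays and full statistics were set to go to members called with a mean change of at least 1 or a difference between the siRNAs of at least 0.5, and of each partner list up to 3 called genes with the highest and 3 with the lowest change were named. Per-array values of other members and Npnt were added outside this rule. The members and lists were chosen with earlier results of these data known.

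Poly-A spike controls read 7.66 in control and 8.71 and 8.42 with siRNA #1 and #2 (means of log2), hybridisation controls 12.03, 11.23 and 11.16, and the 18S probe sets 12.10, 13.08 and 13.11. The difference between the Actb probe sets at the 3′ and 5′ ends was 0.48, 0.26 and 0.23. The part of these values in the results was not tested. Replicate numbers did not pair arrays: the correlations of deviations were -0.0186, -0.0046 and 0.0099. Alternatives covered normalization, choice of probe set, low genes, variance estimation, thresholds, the replicate block, only the arrays of the groups compared and each array left out.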

Additional observations from a re-analysis of the deposited data

Results flagged for a closer look

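In 9 of the 45 genes the change against control differed between the 2 Ncl siRNAs by a direct limma test of siRNA #2 against siRNA #1 (adjusted p under 0.05). The differences on the log2 scale were 0.86 for Col4a2, 0.65 for Col4a1, 0.48 for Itga3, 0.47 for Itga6, 0.34 for Hspg2, 0.31 for Itga8, 0.28 for Itgb1, 0.26 for Itgav and -0.52 for Nid2. In 7 of these both siRNAs raised the gene and siRNA #2 did so further; in Nid2 siRNA #1 did so further. Hspg2 was not called against control with either siRNA (-0.18 with siRNA #1 and 0.16 with siRNA #2).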

How the results depend on the processing

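Of 35 calls printed for the mean of both Ncl siRNAs and for siRNA #2 minus siRNA #1, 20 held under every alternative run and none reversed. The comparison of the siRNAs moved most. Against 9 members called there, averaging all probe sets gave 4, an adjusted p under 0.01 gave 4, variances without a trend gave 0 (20 members had an unadjusted p under 0.05), and leaving out each array in turn gave 4 to 12. Over all genes the 1543 calls became 790, 633, 142 and 451 to 4301, the last without siRNA #1 replicate 2. Quantile normalization moved the share of these calls that were higher from 27.1% to 48.8% over all genes. Member calls against control ranged from 18 to 26 with siRNA #1, 18 to 27 with siRNA #2 and 18 to 26 for their mean over the alternatives. With the replicate number as a block, which the arrays' deviations give no ground for, the members called were 23, 26, 26 and 11 in the 4 comparisons, and all genes 6872, 7184, 7632 and 1611. The comparison of siRNA #2 with siRNA #1 called Lama3 and Lamb3 lower in that fit. Calls of the mean comparison lost by setting, other than those named above, were Dag1 and Lama1 without a variance trend (adjusted p = 0.0558 and 0.131), Lama1 with all probe sets averaged (0.0586) and Itgae without probe sets ending in _x_at or _s_at (adjusted p = 0.201). Between the siRNAs, centred arrays lost Hspg2, Itga8 and Itgav, and averaged probe sets lost these with Itga3 and Itgb1. Leaving out genes below the median gives no value for the 24 members below it. The 18 for the mean was the count among the members left in that run, so it is not a loss of calls among all members. The counts of that run with siRNA #1 and with siRNA #2, which the ranges above include, are likewise over the members left. The cause of these shifts was not tested.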
